A study of Mus musculus with 6 samples.

Results

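Cholesterol and fatty acid synthesis was followed through 8 genes (Hmgcs1, Idi1, Fdft1, Sqle, Lss, Insig1, Fasn and Scd2), found by symbol among the 22558 gene names shared by 3 deposited tables of mRNA sequencing. All 8 were present. The tables hold 6 mouse pluripotent cell cultures with 1 library each, and each table sets 1 library against another. Embryonic stem cells (ESC) of strain 129Sv carried a Cre-mediated knockout (KO) of the histone variant gene H2A.X and were set against a Flox/Flox ESC culture of the same strain. Induced pluripotent stem cells (iPSC) of mixed 129Sv/C57 background came from fibroblasts of the peritoneum (PF, peritoneal fibroblasts) or of the tail tip (TTF). Lines PF2 and TTF2 were labelled 4N- and lines PF1 and TTF1 were labelled 4N+. The labels do not spell out 4N, which in this field usually refers to tetraploid embryo complementation, a test of how far a line can form an embryo. The iPSC names carry the prefix H2A.X but no genotype is stated for them. All 6 cultures were at passage 25, had been grown on feeder cells with LIF, and had been split onto gelatin before RNA was taken so that feeders were left behind. Each condition is therefore 1 line or culture, and no pairwise comparison has a replicate.

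Cells make cholesterol from acetyl-CoA through the mevalonate pathway, then squalene and lanosterol, while fatty acid synthase and the stearoyl-CoA desaturases make and desaturate long-chain fatty acids. When membrane cholesterol is low, SCAP carries the SREBP transcription factors from the endoplasmic reticulum to the Golgi, where proteases release their active part, and INSIG proteins hold this step back when sterols are plentiful. SREBP2 acts mostly on cholesterol genes and SREBP1 mostly on fatty acid genes, and NF-Y and Sp1 commonly bind beside them. Dividing pluripotent cells need both lipid classes for new membrane.

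Promoter sequence was available from RefSeq (build GRCm38.p6, which differs from the mm9 build of the deposited tables) for 5 of the 8 genes: Hmgcs1, Idi1, Lss, Insig1 and Fasn. The 250 bases before the annotated start are shown for the fatty acid gene with the widest spread of levels, for the regulator, and for the only member whose window held a sterol regulatory element core. Fasn lies on the minus strand of chromosome 11, with its window at chr11:120824548-120824797. Insig1 lies on the plus strand of chromosome 5, with its window at chr5:28071162-28071411. Hmgcs1 lies on the plus strand of chromosome 13, with its window at chr13:119690101-119690350. Each is written in the direction of transcription, 5′ to 3′, and capitals mark matches on either strand to TCACNCC (the core of a sterol regulatory element), CCAAT (the NF-Y box) or CACGTG (an E-box).
Fasn: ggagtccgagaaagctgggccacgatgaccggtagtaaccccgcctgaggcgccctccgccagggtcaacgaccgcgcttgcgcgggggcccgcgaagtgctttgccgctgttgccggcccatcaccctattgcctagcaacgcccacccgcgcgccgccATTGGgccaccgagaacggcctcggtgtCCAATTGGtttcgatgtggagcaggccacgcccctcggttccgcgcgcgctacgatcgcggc
Insig1: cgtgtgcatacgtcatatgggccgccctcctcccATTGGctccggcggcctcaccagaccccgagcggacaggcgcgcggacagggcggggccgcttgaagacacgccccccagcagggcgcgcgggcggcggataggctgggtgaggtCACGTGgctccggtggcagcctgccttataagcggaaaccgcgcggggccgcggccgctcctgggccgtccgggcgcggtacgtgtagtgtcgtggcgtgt
Hmgcs1: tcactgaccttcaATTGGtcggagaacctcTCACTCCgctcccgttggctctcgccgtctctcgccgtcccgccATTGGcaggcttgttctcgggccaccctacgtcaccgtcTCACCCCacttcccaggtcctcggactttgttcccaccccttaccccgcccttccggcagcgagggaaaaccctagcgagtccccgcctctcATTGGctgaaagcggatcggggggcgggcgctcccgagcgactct

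CCAAT occurred in all 5 windows, with 3 matches in Fasn, 3 in Hmgcs1, 2 in Idi1 and 1 each in Lss and Insig1. Across all 32851 windows of this length in the RefSeq table, 33.8% held it. In Fasn, the matches beginning 62 and 59 bases before the start lie on opposite strands and overlap. TCACNCC had 2 matches in Hmgcs1 and none in the other windows, against 13.4% of all windows. CACGTG had 1 match, in Insig1, against 6.02% of all windows. The Sp1 box GGGCGG, left in lower case, was found in 4 of the 5 windows and not in Fasn, against 32.7% of all windows. These matches describe letters in a window and say nothing of binding in these cells.

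H2afx, which encodes H2A.X, was at 6.18 FPKM (fragment counts divided by transcript length and sequencing depth) in KO ESC, against 34.9 FPKM in Flox/Flox ESC, and at 65.3 to 75.2 FPKM in the 4 iPSC libraries. Effective depth, recovered from the smallest values in the tables, was 39112353 to 61263372 fragments per library, so that 1 FPKM on a 2000 bp transcript stood for 70.2 to 110 fragments. All 10 pluripotency markers were above 1 FPKM in every library, with a summed level of 1501 FPKM in KO ESC and 2589 to 2895 FPKM elsewhere. Trophoblast markers reached 1 FPKM for 10 of 12 genes in KO ESC (sum 1094 FPKM, of which Krt18 was 659 FPKM), against 6 of 12 in Flox/Flox ESC (sum 47.7 FPKM). Eomes was lower in KO (1.79 FPKM) than in Flox/Flox ESC (2.65 FPKM), and Cdx2 and Elf5 were under 1 FPKM in both. In the iPSC the trophoblast markers summed to 30.3 to 82.4 FPKM, with Elf5 and Plac1 listed at 0 in the 4N- PF line. Fibroblast and feeder markers reached 1 FPKM for 3 of 14 genes in 4N- PF cells (sum 40.6 FPKM), against 9 of 14 in 4N+ PF cells (sum 133 FPKM, with S100a4 at 40.1 FPKM). Elsewhere 3 to 6 of the 14 did so and summed to 13 to 61.7 FPKM, and Lum was listed at 0 in all 6 libraries. Endoderm markers summed to 82.5 FPKM in KO ESC and 10.7 FPKM in Flox/Flox ESC (5 of 11 genes at 1 FPKM in KO and 4 of 11 in Flox/Flox ESC), and to 22.1 to 30.6 FPKM in iPSC. Most of the KO sum was Col4a1 (45 FPKM in KO, 3.33 FPKM in Flox/Flox ESC) and Col4a2 (29.3 FPKM in KO, 1.77 FPKM in Flox/Flox ESC). Lama1 was lower in KO (2.83 FPKM) than in Flox/Flox ESC (3.36 FPKM). Afp and Ttr did not exceed 0.0213 FPKM in either, too low to give a direction. Markers of liver and fat cells, which make much lipid, summed to at most 4.84 FPKM in any library, with Apoc3 and Serpina1a at 0 in all 6. In bulk RNA, fewer cells of a type and less RNA per cell cannot be told apart.

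**Figure D1:**
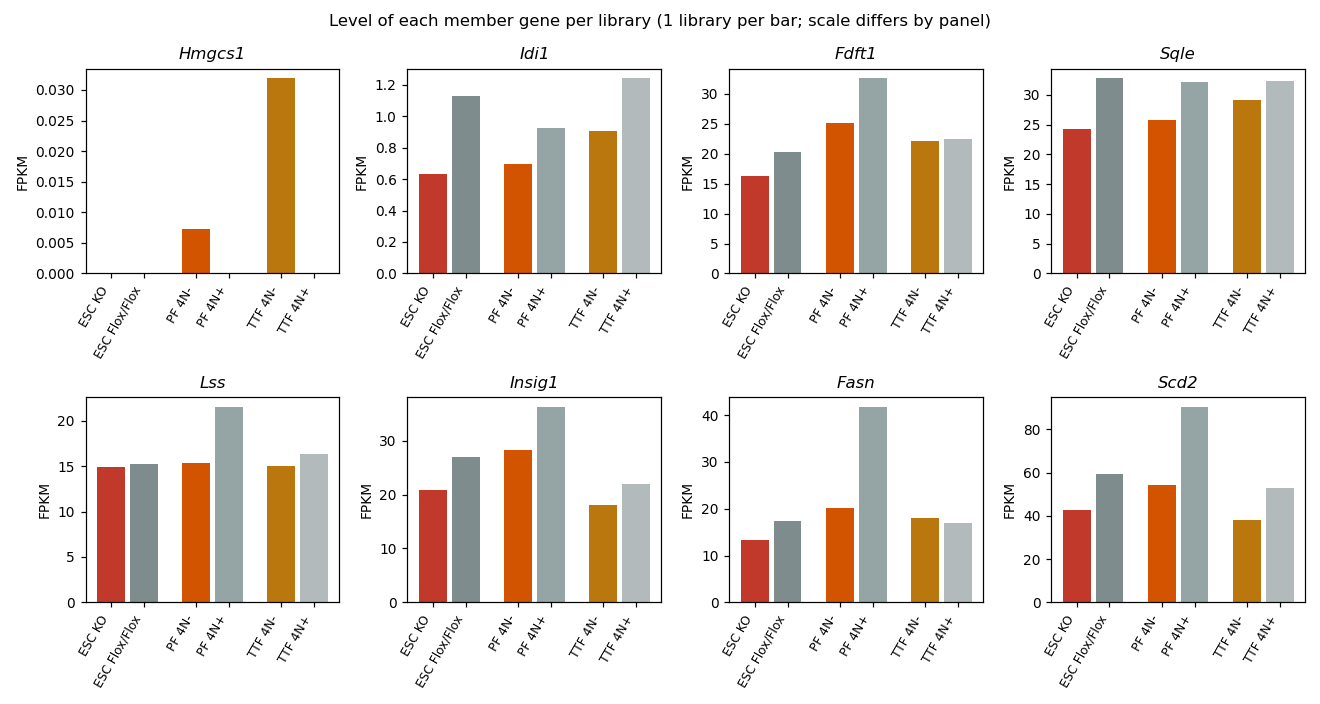
Level of the 8 genes in FPKM, 1 bar per library, KO or 4N- to the left of Flox/Flox or 4N+, with a separate scale per panel. The 4N+ PF line holds the highest bar for Fdft1, Lss, Insig1, Fasn and Scd2, and Hmgcs1 does not exceed 0.0319 FPKM.

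Hmgcs1 and Idi1 act early, in the mevalonate and isoprenoid steps. Hmgcs1, the cytosolic HMG-CoA synthase, was listed at 0 FPKM in both ESC libraries, at 0.00732 FPKM in 4N- PF against 0 FPKM in 4N+ PF cells, and at 0.0319 FPKM in 4N- TTF against 0 FPKM in 4N+ TTF cells, which is about 1 and 6 fragments. Its entry lies on an unplaced contig of mm9, 13_random (308620 to 326235), whereas RefSeq places the gene on chromosome 13 itself. Of 89 entries on such contigs, 71 (79.8%) were under 1 FPKM in all 6 libraries, against 9912 of the other 22469 (44.1%). Hmgcs1 was therefore not compared between conditions. The other 20 cholesterol pathway enzymes apart from Idi1 were all between 2.46 and 88.3 FPKM in every library.

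Idi1, the isopentenyl diphosphate isomerase (chr13:8884852-8891642, mm9), was near the limit of 1 FPKM used here for a measured gene. It was at 0.635 FPKM in KO ESC against 1.13 FPKM in Flox/Flox ESC, at 0.694 FPKM in 4N- PF against 0.922 FPKM in 4N+ PF cells, and at 0.908 FPKM in 4N- TTF against 1.24 FPKM in 4N+ TTF cells. The KO or 4N- library was the lower of every pair, and Idi1 passed 1 FPKM only through the Flox/Flox ESC and 4N+ TTF libraries. At about 70 and 159 fragments, the ESC ratio was 0.562 (95% interval 0.418 to 0.749, counting error only). The ratio was 0.752 (0.561 to 0.999) in the PF pair and 0.734 (0.592 to 0.907) in the TTF pair. Idi1 transcripts share 684 bp at 100% identity with the pseudogene Gm13502 and 681 bp at 97.7% with Gm35570, so its level is uncertain.

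Fdft1, Sqle and Lss make squalene, oxidise it and close the sterol rings. Fdft1, squalene synthase (chr14:63741302-63796630, mm9), was at 16.2 FPKM in KO ESC against 20.3 FPKM in Flox/Flox ESC, at 25.2 FPKM in 4N- PF against 32.6 FPKM in 4N+ PF cells, and at 22.1 FPKM in 4N- TTF against 22.5 FPKM in 4N+ TTF cells. The TTF libraries were nearly level, and the interval of their ratio (0.939 to 1.02, counting error only) included no difference. Fdft1 shares 1249 bp at 97.4% identity with the pseudogene Gm6781. Sqle, squalene epoxidase, a rate-limiting enzyme of the sterol branch (chr15:59146647-59162748, mm9), was at 24.3 FPKM in KO ESC against 32.8 FPKM in Flox/Flox ESC, at 25.8 FPKM in 4N- PF against 32.2 FPKM in 4N+ PF cells, and at 29.1 FPKM in 4N- TTF against 32.4 FPKM in 4N+ TTF cells. It was the steadiest member, with a highest level 1.35 times its lowest over the 6 libraries, levels set across tables that may have been scaled separately. Lss, lanosterol synthase (chr10:75994372-76016679, mm9), was at 14.9 FPKM in KO ESC against 15.2 FPKM in Flox/Flox ESC, at 15.3 FPKM in 4N- PF against 21.5 FPKM in 4N+ PF cells, and at 15 FPKM in 4N- TTF against 16.3 FPKM in 4N+ TTF cells. Of its 6 libraries only the 4N+ PF line stood above 16.3 FPKM.

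Insig1, the sterol-responsive brake on SREBP processing and itself an SREBP target (chr5:28397952-28405202, mm9), was at 20.9 FPKM in KO ESC against 26.9 FPKM in Flox/Flox ESC, at 28.3 FPKM in 4N- PF against 36.2 FPKM in 4N+ PF cells, and at 18.1 FPKM in 4N- TTF against 22.0 FPKM in 4N+ TTF cells. Its ratios were the most alike over the 3 pairs among the members above 5 FPKM, at 0.777, 0.782 and 0.825.

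Fasn, the multifunctional fatty acid synthase (chr11:120667272-120685861, mm9), was at 13.3 FPKM in KO ESC against 17.3 FPKM in Flox/Flox ESC, at 20.1 FPKM in 4N- PF against 41.7 FPKM in 4N+ PF cells, and at 18.1 FPKM in 4N- TTF against 16.9 FPKM in 4N+ TTF cells. Its highest level was 3.14 times its lowest, the widest spread of the 7 genes other than Hmgcs1, and the 4N+ PF line alone exceeded 20.1 FPKM. Scd2, a stearoyl-CoA desaturase that makes monounsaturated fatty acids (chr19:44368166-44381352, mm9), was the most abundant member in every library. It was at 42.9 FPKM in KO ESC against 59.5 FPKM in Flox/Flox ESC, at 54.1 FPKM in 4N- PF against 90.2 FPKM in 4N+ PF cells, and at 38.1 FPKM in 4N- TTF against 52.8 FPKM in 4N+ TTF cells. The 4N+ PF line was again the highest. A transcript of Scd1 shares 623 bp with Scd2 at 95.5% identity, so reads may have been divided between them.

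In the ESC comparison, all 7 measured members were lower in KO than in Flox/Flox cells, each by less than 1.5-fold on the log2(FPKM + 1) scale. A gene counted as measured with a level of 1 FPKM or more in either library of the table, and this scale, used for every difference, understates those of low genes such as Idi1. They ran from -0.46 for Scd2, through -0.42 for Sqle, -0.38 for Idi1, -0.35 for Insig1 and for Fasn and -0.31 for Fdft1, to -0.03 for Lss, with a median of -0.35. Idi1 was measured only through the Flox/Flox library and so had to be lower. Over all 12086 measured genes the median was -0.03 and 51.7% were lower in KO cells. Well-expressed genes, which include every measured member but Idi1, are those not under 5 FPKM in either library. Of these 6901 genes 4502 were lower in KO cells and their median was -0.20, and the summed FPKM was 263928 in KO against 340024 in Flox/Flox ESC. Below that shift lay 6 of the 7 members, beside 38.2% of all measured genes and 3450 of the 6901. Centred on it the members' median was -0.15 and Lss was at 0.18, and with the libraries' upper quartiles made equal the members' median was -0.08. The counting interval of the Lss ratio (0.931 to 1.03) included no difference. At least 1.5-fold lower were 0 of the 7, against 15.9% of measured genes. The sums of trophoblast markers (1094 FPKM in KO against 47.7 FPKM in Flox/Flox ESC) and endoderm markers (82.5 FPKM in KO against 10.7 FPKM in Flox/Flox ESC) were higher in KO cells. The trophoblast sum was mostly Krt18, while Eomes was lower in KO cells. The endoderm sum rested mostly on Col4a1 and Col4a2, while Lama1 was lower in KO cells and Afp and Ttr were near 0 in both libraries. The part of either marker list in the members' differences and in those of the lipid lists was not tested. In the authors' deposited table no member was significant (q-values from 0.952 to 1), against 1.44% of the 14589 genes tested there.

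**Figure D2:**
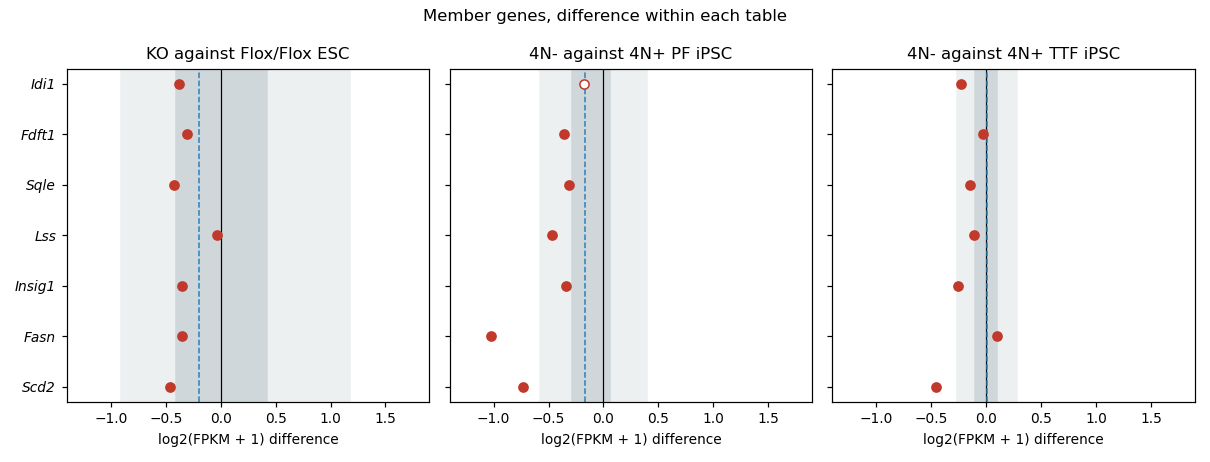
Difference in log2(FPKM + 1) of the 7 genes other than Hmgcs1 in KO against Flox/Flox ESC (left), 4N- against 4N+ PF iPSC (middle) and 4N- against 4N+ TTF iPSC (right). Grey bands span the middle 50% and 90% of all measured genes, the dashed line is the median of well-expressed genes (neither library under 5 FPKM), and the open circle is Idi1 where both libraries were under 1 FPKM. Fasn and Scd2 lie outside the wide band in the PF panel and Scd2 in the TTF panel, and no member does in the ESC panel.

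In the PF pair the fatty acid genes differed most. Fasn was 2.07-fold lower in 4N- than in 4N+ cells (difference -1.02, ratio 0.482 with a counting interval of 0.47 to 0.495), and only 1.49% of measured genes differed by more in either direction. Scd2 was 1.67-fold lower (-0.73, with 3.37% of genes differing by more). The sterol genes were lower by less, with differences of -0.47 for Lss, -0.36 for Fdft1 and -0.31 for Sqle, and Insig1 was at -0.34. All 6 measured members were thus lower in 4N- cells (Idi1 was under 1 FPKM in both libraries), as were 68.1% of the 11606 measured genes, with a members' median of -0.41 against -0.13 for all genes. At least 1.5-fold lower were 2 of the 6, against 4.85%, at least 2-fold lower was 1 of the 6, against 0.974%, and at least 1.5-fold higher was none, against 1.98%. Of the 7184 well-expressed genes 5388 were lower in 4N- cells, with a median of -0.17. All 6 members lay below it, against 44.3% of all and 3592 of the 7184, and their centred median was -0.25, with Fasn at -0.85 and Scd2 at -0.56. The authors' deposited table gave Fasn a p of 0.000447 and a q of 0.0726 and Scd2 a q of 0.649, neither significant there, where 0.537% of 13956 genes were. The fibroblast and feeder markers that were higher in the 4N+ PF line (sum 40.6 FPKM in 4N- against 133 FPKM in 4N+ cells) stand beside these differences, and their part in them was not tested.

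In the TTF pair Scd2 stood apart from the other members. It was 1.39-fold lower in 4N- than in 4N+ cells (-0.46), and 2.9% of measured genes differed by more. Insig1 was at -0.26, Idi1 at -0.23, Sqle at -0.15, Lss at -0.11 and Fdft1 at -0.03. Fasn was higher in 4N- cells by 0.10, with 51.8% of measured genes differing by more. In all, 6 of the 7 measured members were lower (Idi1 was measured only through the 4N+ library and so had to be), against 49.9% of the 11354 measured genes, with a median of -0.15 against 0.00 for all genes and 0.01 for well-expressed genes, of which 3366 of 7193 were lower. Below that last median lay 6 of the 7, against 52.9% of all. At least 1.5-fold lower were 0 of the 7, against 0.907%, and at least 1.5-fold higher 0 of the 7, against 0.828%. The authors' deposited table gave Scd2 a p of 0.00124 and a q of 0.204, and called no member, against 0.301% of 14289 genes.

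Over both iPSC pairs, a limma fit of the 4 libraries with parental cells as a block called no member. With Benjamini-Hochberg adjustment over 11985 genes, 14 genes (0.117%) passed an adjusted p of 0.05, and 446 (3.72%) had an unadjusted p under 0.05, among them 1 member. That was Scd2, at -0.59 ± 0.20 (SE, limma adjusted p = 0.893), lower in both 4N- lines. Fasn was at -0.46 ± 0.25 (SE, limma adjusted p = 0.999), lower in 1 of the 2 pairs. Insig1 was at -0.30 ± 0.18, Lss at -0.29 ± 0.18, Sqle at -0.23 ± 0.18, Idi1 at -0.21 ± 0.18 and Fdft1 at -0.19 ± 0.19 (SE, each with a limma adjusted p of 0.999), and each was lower in both pairs. Of 10975 genes measured in both pairs, 33.5% were. Idi1 is not among these genes, being under 1 FPKM in both PF libraries. It entered the fit only through the 4N+ TTF library and so had to be lower in the 4N- line of that pair. With 1 residual degree of freedom a gene, the limma p-values do not show that the lines were alike. Nothing in the labels says that the lines came from separate animals, so these p-values speak only for these cultures. Limma also draws each gene's spread toward that of genes of similar level, so each SE and p rests partly on other genes. Fasn had an SE of 0.25 with its pairs at -1.02 and 0.10, and Insig1 one of 0.18 with its pairs at -0.34 and -0.26. In a fit that left out both the 4N+ PF line and the block, and so also set lines of different parental cells against each other, Fasn was at 0.17, Fdft1 at 0.06, Insig1 at 0.04 and Scd2 at -0.21. The TTF pair alone, which uses no PF line, had Fdft1 at -0.03, Insig1 at -0.26, Scd2 at -0.46 and Fasn at 0.10.

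Of 21 measured cholesterol enzymes (the members included), 7 were higher and 14 lower in KO than in Flox/Flox ESC, with a median of -0.16, or 0.04 after centring, and 51.7% of all measured genes were lower. The lowest was Acat2, which makes acetoacetyl-CoA, at 14.0 FPKM in KO against 22.2 FPKM in Flox/Flox ESC (-0.63), the only enzyme past 1.5-fold on the log2(FPKM + 1) scale. As a plain FPKM ratio Idi1 was also past it, at 0.562. Lbr, a sterol reductase of the nuclear envelope, was at 35.8 FPKM in KO and 51.3 FPKM in Flox/Flox ESC (-0.51). Mvd, mevalonate diphosphate decarboxylase, was higher, at 11.9 FPKM in KO and 8.33 FPKM in Flox/Flox ESC (0.47), as was Dhcr7, which catalyses the last reduction to cholesterol, at 19.8 FPKM in KO and 14.2 FPKM in Flox/Flox ESC (0.45). In iPSC, 15 of 20 enzymes were lower in 4N- PF cells (median -0.33, centred -0.16), near the 68.1% over all measured genes. In 4N- TTF cells 17 of 21 were lower (median -0.10), Idi1 among them, against 49.9%. In neither pair was an enzyme past 1.5-fold on the log2(FPKM + 1) scale.

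Fatty acid enzymes around Fasn and Scd2 also differed most in the PF pair. Of 20 enzymes, 15 were lower in 4N- PF cells, near the 68.1% over all measured genes. At least 1.5-fold lower were 8 of the 20, against 4.85%, although the median of the list was -0.13, the same as over all genes. Acly, which makes cytosolic acetyl-CoA from citrate, was at 78.1 FPKM in 4N- PF against 118 FPKM in 4N+ PF cells (-0.59). Acaca, acetyl-CoA carboxylase, which makes the malonyl-CoA that Fasn uses, was at 3.18 FPKM in 4N- PF against 5.6 FPKM in 4N+ PF cells (-0.66, q = 0.461 in the authors' deposited table). Scd1, the close relative of Scd2, was at 15.9 FPKM in 4N- PF against 27.8 FPKM in 4N+ PF cells (-0.77, q = 0.346 in the authors' deposited table). The other 3 past 1.5-fold, named after their values were seen, were Mcat (-0.64), Fads1 (-0.61) and Fads2 (-0.59). After centring, 2 of the 20 remained at least 1.5-fold lower, against 2.03% of measured genes. The list's centred median was 0.04, the same as over all genes.

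In the TTF pair 13 of the 20 were lower in 4N- cells, against 49.9% of measured genes, with a median of -0.04. On the log2(FPKM + 1) scale 0 passed 1.5-fold. Of the 13, Elovl7 (named after its values were seen) reached 1 FPKM only in 4N+ TTF cells and so had to be lower. As plain FPKM ratios, Elovl7 was 1.57-fold and Scd1 1.52-fold lower. Scd1 had the lowest log2 difference, at 8.89 FPKM in 4N- TTF against 13.5 FPKM in 4N+ TTF cells (-0.55, q = 0.174 in the authors' deposited table). Over both pairs Scd1 was at -0.66 ± 0.17 (SE, limma adjusted p = 0.622), lower in both 4N- lines. In limma, 0 of the 20 were called and 2, Scd1 and Scd2, had an unadjusted p under 0.05. Acly was at 69.2 FPKM in 4N- TTF and 72.1 FPKM in 4N+ TTF cells, and Acaca was at 2.45 FPKM in 4N- TTF and 2.65 FPKM in 4N+ TTF cells.

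In ESC 12 of the 20 fatty acid enzymes were lower in KO cells (median -0.15, centred 0.05), against 51.7% of measured genes, and elongases held both extremes. Elovl1, which extends very long saturated chains, was at 16.9 FPKM in KO against 5.14 FPKM in Flox/Flox ESC (3.29-fold higher, 1.55), past 2-fold like 7.49% of measured genes. Elovl6, which extends the palmitate that Fasn makes, was at 22.1 FPKM in KO against 47.3 FPKM in Flox/Flox ESC (2.14-fold lower, -1.06), past 2-fold like 3.72% of genes. Acaca was also past 1.5-fold, at 2.76 FPKM in KO and 4.71 FPKM in Flox/Flox ESC (-0.60). Acly was at 52.9 FPKM in KO and 78.7 FPKM in Flox/Flox ESC (-0.57), and Scd1 was at 10.6 FPKM in KO and 14.3 FPKM in Flox/Flox ESC (-0.40). The authors' deposited table called none of these genes (q = 0.599 for Elovl6 and 0.976 for Elovl1).

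**Figure D3:**
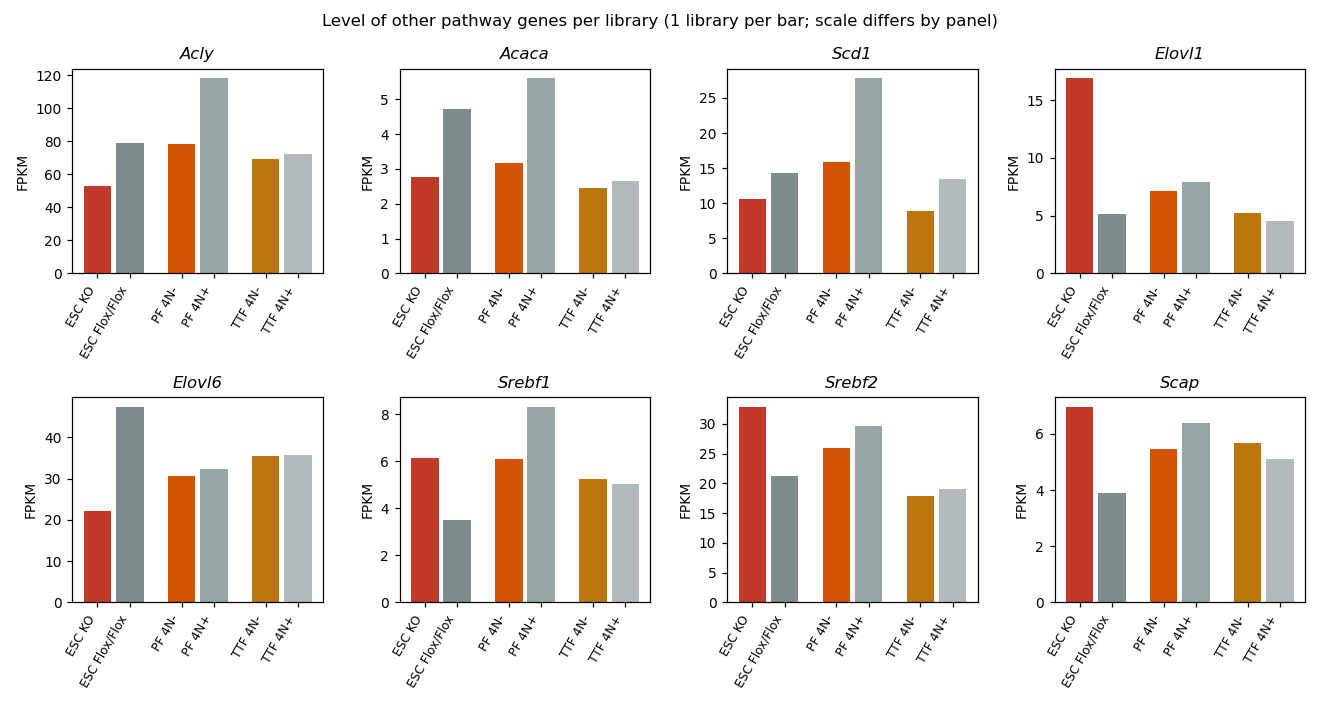
Level of 8 pathway genes outside the main set in FPKM, 1 bar per library, KO or 4N- to the left of Flox/Flox or 4N+, with a separate scale per panel. Elovl1, Srebf1, Srebf2 and Scap are higher in KO than in Flox/Flox ESC while Acly, Acaca, Scd1 and Elovl6 are lower.

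Of 12 measured SREBP regulators (Insig1 included), 7 were higher and 5 lower in KO than in Flox/Flox ESC, where 48.3% of all measured genes were higher. At least 1.5-fold higher were 4 of the 12, against 17.8% of measured genes, with a median of 0.29, or 0.49 after centring. Srebf1, which encodes SREBP1, was at 6.13 FPKM in KO against 3.5 FPKM in Flox/Flox ESC (0.66). Srebf2, which encodes SREBP2, was at 32.8 FPKM in KO against 21.3 FPKM in Flox/Flox ESC (0.60). Scap, the sterol-sensing escort, was at 6.95 FPKM in KO against 3.89 FPKM in Flox/Flox ESC (0.70). Mbtps2, the second of the proteases that cut SREBPs, was the lowest, at 7.41 FPKM in KO against 13.9 FPKM in Flox/Flox ESC (-0.82). Insig2 was at 14.0 FPKM in KO and 10.4 FPKM in Flox/Flox ESC (0.39).

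In iPSC the regulators differed by less than 1.5-fold throughout on the log2(FPKM + 1) scale. All 12 were lower in 4N- PF cells (median -0.22, centred -0.06), where 68.1% of genes were, and 6 of 12 in 4N- TTF cells (median -0.03). Srebf1 was at 6.08 FPKM in 4N- PF and 8.29 FPKM in 4N+ PF cells (-0.39), and Srebf2 was at 26.0 FPKM in 4N- PF and 29.7 FPKM in 4N+ PF cells (-0.18). Both were within 0.08 of 0 in the TTF pair.

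Of 11 measured genes of sterol uptake and other SREBP2 targets outside synthesis, 6 were higher and 5 lower in KO than in Flox/Flox ESC, near the 48.3% higher over all genes, with a median of 0.03. Lpin1, a phosphatidate phosphatase, was highest, at 7.76 FPKM in KO against 3.97 FPKM in Flox/Flox ESC (0.82), and Tmem97, the sigma-2 receptor, was lowest, at 14.4 FPKM in KO and 19.7 FPKM in Flox/Flox ESC (-0.43). In 4N- PF cells 9 of the 11 were lower (median -0.31, centred -0.15), against 68.1% of measured genes. In 4N- TTF cells 10 of the 11 were lower (median -0.20), against 49.9%, and 1 of those, Vldlr (named after its values were seen), reached 1 FPKM only in 4N+ TTF cells and so had to be lower.

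A list of genes around the oxysterol receptor LXR and sterol efflux and a list of fatty acid breakdown genes were set beside these. All 7 measured LXR and efflux genes were higher in KO than in Flox/Flox ESC (median 0.57, centred 0.77), against 48.3% of measured genes. Of these 7, 2 reached 1 FPKM only in KO cells and so had to differ that way. Some, Abca1 and Cyp27a1 among them, were under 5 FPKM and so outside the genes that set the centring. Over all measured genes the centred median was 0.17, and 1055 reached 1 FPKM only in KO against 234 only in Flox/Flox ESC. Abca1, which exports cholesterol, was at 2.32 FPKM in KO against 0.551 FPKM in Flox/Flox ESC (1.10), and Cyp27a1, which makes an oxysterol, was at 3.42 FPKM in KO and 1.19 FPKM in Flox/Flox ESC (1.01). Nr1h2, which encodes an LXR, was the lowest of the 7, at 10.8 FPKM in KO and 8.18 FPKM in Flox/Flox ESC (0.36). Of 18 breakdown genes 12 were higher in KO cells (median 0.34), against 48.3% of measured genes, from Hadhb at 1.91 FPKM in KO and 3.23 FPKM in Flox/Flox ESC (-0.54) to Acadvl at 17.8 FPKM in KO and 8.73 FPKM in Flox/Flox ESC (0.95). In the PF pair the medians of the LXR and breakdown lists were 0.13 and -0.14, and in the TTF pair -0.16 and 0.07. In the tables the authors deposited, none of the 100 listed genes was significant in any of the 3 comparisons.

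**Figure D4:**
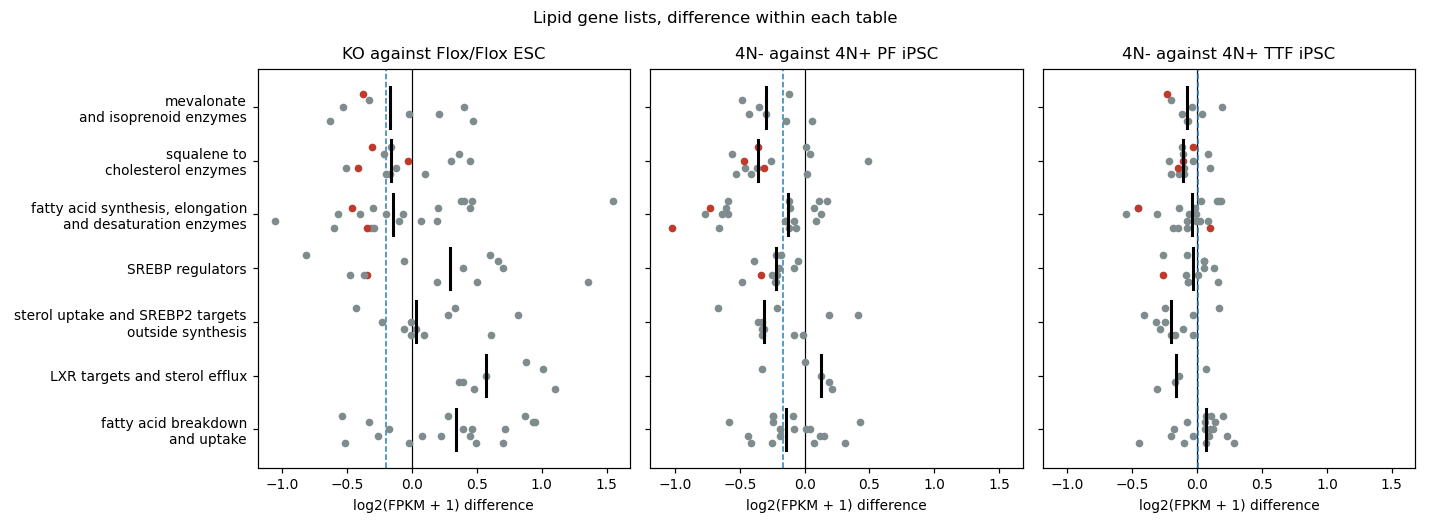
Difference in log2(FPKM + 1) for every measured gene of 7 lipid gene lists, in KO against Flox/Flox ESC (left), 4N- against 4N+ PF iPSC (middle) and 4N- against 4N+ TTF iPSC (right). Red points are members, black ticks are list medians and the dashed line is the median of well-expressed genes. The SREBP regulator, LXR and breakdown medians lie right of 0 in ESC, as does that of sterol uptake by 0.03. Fasn is the leftmost point of the PF panel.

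The genes whose 3 differences were closest to the members' medians (-0.35, -0.41 and -0.15), among 6381 genes at 5 FPKM or more in all 6 libraries, were Larp1b, Tada2a, Rnft1, 5730455P16Rik and Pkn2, with root mean square distances of 0.023 to 0.036. Larp1b was at 10.8 FPKM in KO against 14.4 FPKM in Flox/Flox ESC, at 10.1 FPKM in 4N- PF against 14.0 FPKM in 4N+ PF cells, and at 8.28 FPKM in 4N- TTF against 9.26 FPKM in 4N+ TTF cells. Of 10839 genes measured in all 3 tables, 2366 (21.8%) were lower in the KO or 4N- library of every table. So were 5 of the 6 members measured in all 3 (Fasn being the other). All 6 were well expressed. Of such genes 4502 of 6901 were lower in KO ESC, 5388 of 7184 in 4N- PF cells and 3366 of 7193 in 4N- TTF cells. Among the 5, Lss in ESC and Fdft1 in the TTF pair were each at -0.03, with counting intervals that included no difference. Centred, Lss in ESC was at 0.18.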

How the data were processed

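The authors deposited 3 tables, each setting 1 library against another, and per the file headers each holds the authors' p-value and q-value for every gene with their significance call. Library values were taken as FPKM as deposited by the authors, from their range. Per the submitters' processing notes, reads went through CASAVA and TopHat2 on mm9. Which program, versions and annotation gave the values, and whether strand was used, is not stated in what was used here.

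The 8 genes, the 7 lipid lists (101 entries, textbook pathway membership), the 5 marker lists and the tests were chosen with earlier results of these data known. March6 is not analysed here. Differences of log2(FPKM + 1) were formed within a table. Centring subtracted the median of well-expressed genes, those not under 5 FPKM in either library of a table. Apart from the members, the text names in each list the highest and lowest gene in the ESC comparison, genes past 2-fold in any comparison, and Srebf1, Srebf2, Scap, Insig2, Acaca, Acly, Scd1 and Abca1. Some genes that this rule picks are counted but not reported by name here. For the 4 iPSC libraries limma 3.58.1 (R 4.3.3) was used with a trend, parental cells as block and Benjamini-Hochberg adjustment. The fit was also run on simulated libraries, where only its mean estimates were checked against the simulated differences. Fragments were recovered by finding the divisor and a length offset (205 bp) that made low values of receptor genes whole within 0.05. Lengths of spliced transcripts were approximated from GENCODE, so fragment numbers are approximate, no count test was run, and intervals (95%, conditional binomial) cover counting error only. Shared transcript sequence was searched with BLAST 2.17.0. Alternatives were another pseudocount, filters, centring, upper quartile scaling, no block, no trend and each iPSC line left out.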

Additional observations from a re-analysis of the deposited data

Results flagged for a closer look

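Fasn differed in opposite directions in the 2 iPSC pairs, by -1.02 between 4N- and 4N+ PF cells and by 0.10 between 4N- and 4N+ TTF cells on the log2(FPKM + 1) scale. Tmem97 did so too, by -0.67 in the PF pair (19.3 FPKM in 4N- against 31.3 FPKM in 4N+ cells) and by 0.17 in the TTF pair (24.5 FPKM in 4N- against 21.7 FPKM in 4N+ cells). In the TTF pair 51.8% of measured genes differed by more than Fasn. With 1 library per line and label the difference between the pairs was not tested. Of the 33 genes named by rule, 8 others had opposite signs in the pairs with both differences under 1.5-fold.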

How the results depend on the processing

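Of the alternatives to the values that answer a comparison, 63 gave the same reading and 14 moved it. A median kept its reading if its sign held and it changed by less than 1.5-fold. For medians this small that asks little more than the sign, and the members' ESC median counted as the same at -0.35 and at -0.08. Other values could hardly move, such as the number of members called by limma. The tally is therefore no measure of how robust the results are. Centring on the shift of well-expressed genes put the ESC medians at 0.04 for cholesterol enzymes and 0.05 for fatty acid enzymes, and the PF median of fatty acid enzymes at 0.04. It left 1 fatty acid enzyme at least 1.5-fold lower in ESC, in place of 2, 2 in the PF pair, in place of 8, and 1 member there, in place of 2, as did upper quartile scaling. Over all measured genes, centring took that share from 15.9% to 8.09% in ESC and from 4.85% to 2.03% in the PF pair. With upper quartile scaling it was 2.15% in the PF pair. That scaling and centring also put Lss in ESC at 0.24 and 0.18, and that scaling put the members' ESC median at -0.08. With a pseudocount of 0.1 FPKM, 1 member (none before) was at least 1.5-fold lower in ESC, against 18.7% of measured genes. In the TTF pair 2 fatty acid enzymes were, against 1.56%. The iPSC fit called 14 genes with parental cells as a replicate block, 3 with no replicate block, 67 with a minimum of 5 FPKM, and 0 in limma with no filter (1015 at an unadjusted p under 0.05). Leaving out each line in turn gave 1 to 17 calls, in fits with no block that compare across tables and assume that a lone line varies like the others. In those fits Fasn ran from -1.09 to 0.17, Insig1 from -0.65 to 0.04 and Fdft1 from -0.45 to 0.06, each highest without the 4N+ PF line (where the block is also absent). No member was called under any setting, and the lowest adjusted p (limma) was 0.693 for Scd2. The labels do not tie the lines of 1 parental cell type to 1 animal, so the block rests on cell type alone. With 1 library per condition, spread within a condition is unknown. Counting error leaves the direction of Lss in ESC and of Fdft1 in the TTF pair undetermined, and Idi1 imprecise. Hmgcs1 is unmeasured, with its entry on an unplaced contig, and why its values are near 0 was not tested.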
